A study of Rattus norvegicus with 2 samples.

Results

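The S phase and DNA replication genes are 49 genes named by symbol for their known part in copying the genome: origin licensing factors, helicase activators, polymerases, the sliding clamp and its loader, nucleotide supply enzymes, and the regulators and chromatin factors of the same cell cycle phase. They were chosen by name, not by their values, although earlier results of these data were known. Of the 49, 46 had a value among the 14217 genes of the array. Total RNA of AT6.1, an established rat prostate cancer cell line, was hybridised to Affymetrix arrays in 2 groups of 1 array each. The Ndrg-1 array came from clone 7, transfected with the pcDNA3 plasmid carrying N-myc downstream regulated gene-1, and the vector array from clone 9, transfected with the plasmid lacking an insert. Both clones grew with 10% fetal calf serum under selection with 0.3 mg/mL G418, the drug to which the plasmid gives resistance. Each group is 1 clone, 1 culture and 1 array, so clone, culture, array and insert cannot be told apart. No p-value or replicate error can be given for any difference.

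DNA replication starts when the origin recognition complex, CDC6 and CDT1 load the MCM2-7 helicase onto origins in G1. Cyclin E with CDK2, and the kinase that acts on MCM proteins, then turn the loaded helicase into a moving fork with CDC45 and the GINS complex. Polymerase alpha with primase starts each strand, polymerases delta and epsilon extend it on the PCNA clamp, and FEN1 and DNA ligase I join the lagging-strand pieces. Many of these genes are transcribed at the G1/S transition under E2F factors, and they are widely used as markers of proliferating cells, tumour cells included.

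The transfected gene was read by 2 probe sets. For Ndrg1 the brighter gave signals of 1353 (Ndrg-1 array) and 1062 (vector array), a log2 ratio of 0.34, and the dimmer gave 154 and 181, a log2 ratio of -0.24. Neither reached 2-fold, and whether these probe sets read the transfected copy is not given in the sources used here. The 3' to 5' signal ratio was 1.21 and 1.24 for beta-actin and 1.05 and 1.03 for Gapdh. The floor is the signal of 31.0 to which lower values were raised. Of the prostate markers with a probe set of their own, Pbsn, Hoxb13 and Msmb were below the floor in both arrays. Tmprss2 exceeded the floor in the Ndrg-1 array alone, at 35.4. Among 7 epithelial markers only Krt8 exceeded it, at 38.7 and 46.2, whereas of 3 mesenchymal markers Vim had signals of 4344 and 5798 and Fn1 of 2240 and 2547, and Cdh2 was below the floor in both arrays. Most defining markers of prostate and epithelium were thus absent at this floor. Of 4 macrophage and leukocyte markers, Cd68 (206 and 114) and Cd14 (210 and 308) were above it in both arrays. Csf1r was above it in the vector array alone, at 33.3. The defining leukocyte marker Ptprc was not above it in either. The endothelial markers Pecam1 and Kdr were below the floor in both.

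All 46 measured members were above the floor in both arrays, with signals from 76.4 for Tyms in the vector array to 3684 for Pcna in the vector array. Of the 3 members without a value, Cdc6 and Gins2 had no probe set annotated to them, and Rrm2 was annotated only on probe sets that also carry a second gene, which were not used. The differences between the arrays were small. The median log2 ratio of the members, Ndrg-1 over vector, was -0.09, against 0.0029 for all 9183 genes above the floor in at least 1 array. No member (0 of 46) differed by 2-fold, where 3.13% of all genes did so in either direction. At the lower fold of 1.3, 4 members were higher in the Ndrg-1 array, or 8.70% of them, against 11.8% of all genes. These were Orc1, Ccne2, Slbp and Uhrf1. In the other direction 2 members, Ccne1 and Mcm3, were at least 1.3-fold lower, or 4.35%, against 12.0% of all genes. A log2 ratio below 0 was found in 33 of the 46 members (71.7%), against 49.6% of all genes.

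**Figure D1:**
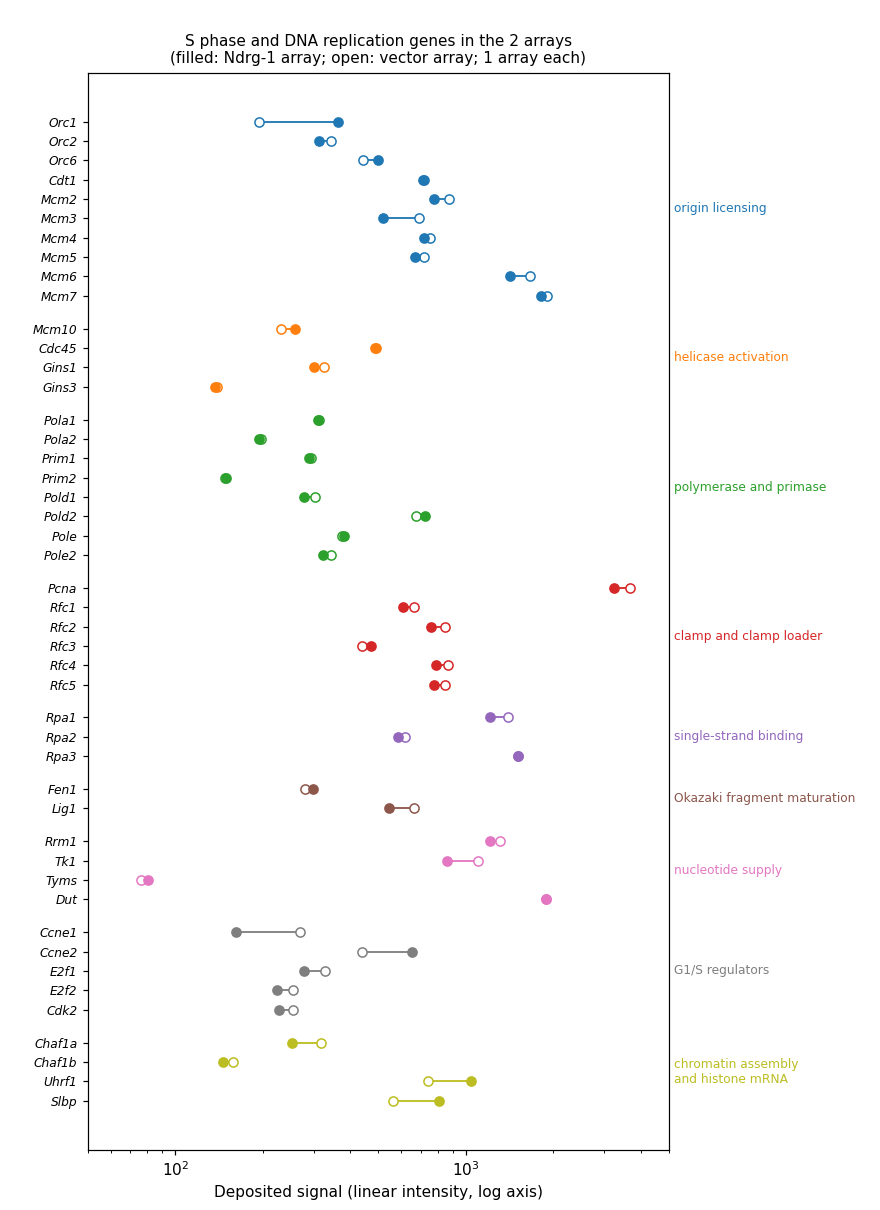
Deposited signal of each of the 46 members in the Ndrg-1 array (filled points) and the vector array (open points), on a log axis, grouped by role, with 1 array per group. Most pairs of points nearly coincide, and the long lines belong to Orc1, Ccne1, Ccne2, Uhrf1, Slbp and Mcm3.

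The members lay closer together than genes in general. The middle 50% of their log2 ratios ran from -0.16 to 0.01, and that of all genes from -0.20 to 0.20. A difference smaller than 1.2-fold was found in 37 members (80.4%) and in 61.3% of all genes. The members were also brighter than genes in general, and whether signal accounts for their narrower spread was not tested. The median signal of the members was 509 with Ndrg-1 and 463 with the vector, above the 235 and 229 of all measured genes, and ratios scatter less at high signal. When genes above the floor in both arrays were divided into 5 equal bands of mean signal, the median absolute log2 ratio of all genes was 0.27 in the dimmest band and 0.16 in the brightest. The 15 members in the brightest band, from a signal of 712 upwards, had a median absolute log2 ratio of 0.15. In the band from 352 to 712, 12 members had 0.12 against 0.17 for all genes, and in the band from 192 to 352, 15 members had 0.14 against 0.18.

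The share of negative ratios differed between the bands. In the brightest band 14 of 15 members were below 0, and 64.3% of all genes there were too, with medians of -0.14 for the members and -0.08 for all genes. In the band from 352 to 712, 5 of 12 members were below 0 (medians 0.02 and 0.04). In the band from 192 to 352, 12 of 15 members were below 0, where 44.9% of all genes were, with medians of -0.12 and 0.03. The part of signal in the members' median was not tested beyond these bands and other scalings. Removal of the trend of ratio on signal left the median at -0.07, and quantile normalization left it at -0.08. Across the 46 members the log2 ratio had a Pearson r of -0.07 and a Spearman rho of -0.14 with mean log2 signal. These are descriptions, since the points share both arrays.

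**Figure D2:**
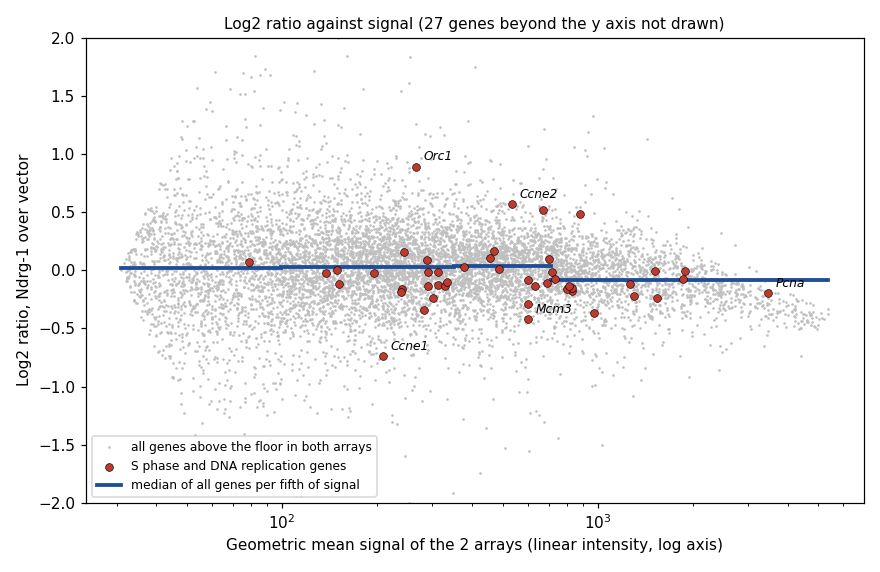
Log2 ratio, Ndrg-1 over vector, against the geometric mean signal of the 2 arrays (log axis) for all genes above the floor in both arrays (grey), the members (red) and the median of all genes in each of 5 bands of signal (blue lines). The blue line lies between 0.02 and 0.04 in the lower 4 bands and at -0.08 in the brightest, and most red points lie close to it or just below.

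The error that these values allow is how far probe sets for the same gene differ. The SD of their log2 ratios was 0.23 over 5341 probe sets of 2298 genes, all brighter than the floor in each array, and 0.24 over the 24 probe sets of the 10 members that had more than 1 such probe set. Variation from clone to clone, culture to culture and array to array is not part of it. Of the 46 members, 5 lay beyond 2 SD (0.46), or 10.9%, against 16.9% of all genes. These were Orc1, Ccne2, Slbp, Uhrf1 and Ccne1. Among the 10 members with further probe sets, 5 had ratios of the same sign on every probe set, and in 3 (Ccne2, Tk1 and Dut) the probe sets spanned more than 0.46. In bulk RNA, a smaller share of cells in S phase and less of a transcript per cell cannot be told apart.

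A sequence feature that the choice by name did not use is the E2F site. No promoter window was available for Orc1, Ccne2, Cdc6, Rrm2, Rpa3, E2f1, E2f2 or Mcm4. For the other 41 of the 49 members, RefSeq (rat assembly GRCr8) gave windows of 300 bases, from 250 before to 50 after each gene start. They were searched on both strands for the words TTTCCCGC, TTTGGCGC, TTTCGCGC and TTTGCCGC. At least 1 of them was present in 17 of the 41 members (41.5%), in 2.37% of all 27457 genes with a window and in 4.78% of the 7307 that exceeded the floor in each array. The 17 members held 27 matches, of which 19 began within 100 bases of the start, and 4 pairs of matches overlapped each other. Origin licensing genes held a word most often by count, in 6 of 8 (Cdt1, Mcm2, Mcm3, Mcm5, Mcm6 and Mcm7), followed by polymerase and primase genes with 3 of 8 (Pola1, Pole and Pole2). The CCAAT word, searched likewise, was present in 24 of the 41 members (58.5%), in 39.6% of all genes and in 40.5% of those above the floor in both arrays. A match is a description and not a bound site. Only exact words were searched, so a window without a match is not shown to lack an E2F site.

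**Figure D3:**
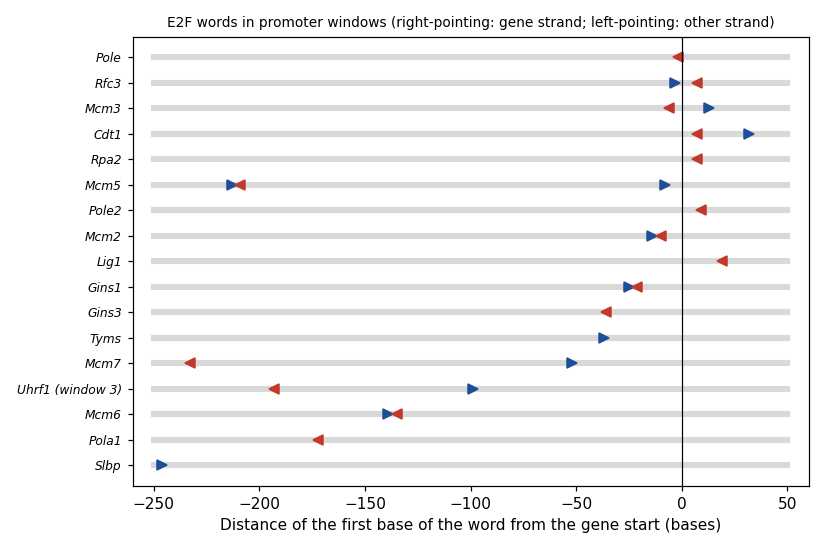
Distance in bases from the gene start to the first base of each E2F word in the promoter windows of the 17 members that hold one, with right-pointing marks for the gene strand and left-pointing marks for the other strand. Of the 27 marks 19 lie within 100 bases of the start, and the mark of Slbp lies farthest away, at -246.

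The ratios of members with and without a word overlapped widely. The 17 with a word had a median log2 ratio of -0.08 (from -0.42 for Mcm3 to 0.52 for Slbp), with 12 below 0. The 23 measured members with a window but no word had a median of -0.13 (from -0.73 for Ccne1 to 0.17 for Orc6), with 17 below 0. Orc1 and Ccne2, the members with the highest ratios (0.89 and 0.57), had no window and are in neither set. The windows of 4 members with wide ratios are printed 5′ to 3′ on the gene strand, with E2F words in capitals. They are printed to show that the windows differ in these words. Mcm3, the lowest MCM gene, lies on the minus strand at chr9:30733697-30733996 and holds 2 words, at -6 and 13 from the start. Uhrf1, a higher member, had 3 windows, of which the third, on the plus strand at chr9:1222936-1223235, holds 2 words, at -193 and -99. Slbp, also higher, lies on the plus strand at chr14:81295998-81296297 and holds 1 word. Ccne1, the lowest member, lies on the minus strand at chr1:99927860-99928159 and holds 0 of these words.
Mcm3: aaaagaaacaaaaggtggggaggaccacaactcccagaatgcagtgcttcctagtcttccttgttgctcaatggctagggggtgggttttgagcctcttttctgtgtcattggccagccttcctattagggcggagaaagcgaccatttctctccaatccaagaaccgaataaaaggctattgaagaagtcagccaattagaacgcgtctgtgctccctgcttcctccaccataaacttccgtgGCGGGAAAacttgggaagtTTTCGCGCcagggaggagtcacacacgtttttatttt
Uhrf1: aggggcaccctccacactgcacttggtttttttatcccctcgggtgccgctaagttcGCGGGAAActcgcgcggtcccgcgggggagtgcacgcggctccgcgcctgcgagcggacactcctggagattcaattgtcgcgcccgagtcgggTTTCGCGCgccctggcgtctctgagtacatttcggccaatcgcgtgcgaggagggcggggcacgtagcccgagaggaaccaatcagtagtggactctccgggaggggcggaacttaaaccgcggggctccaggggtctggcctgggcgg
Slbp: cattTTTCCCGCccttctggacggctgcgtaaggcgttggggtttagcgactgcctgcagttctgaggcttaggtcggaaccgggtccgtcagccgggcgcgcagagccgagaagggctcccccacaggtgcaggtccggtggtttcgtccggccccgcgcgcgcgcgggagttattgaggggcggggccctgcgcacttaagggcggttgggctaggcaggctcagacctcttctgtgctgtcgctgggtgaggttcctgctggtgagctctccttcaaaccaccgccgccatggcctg
Ccne1: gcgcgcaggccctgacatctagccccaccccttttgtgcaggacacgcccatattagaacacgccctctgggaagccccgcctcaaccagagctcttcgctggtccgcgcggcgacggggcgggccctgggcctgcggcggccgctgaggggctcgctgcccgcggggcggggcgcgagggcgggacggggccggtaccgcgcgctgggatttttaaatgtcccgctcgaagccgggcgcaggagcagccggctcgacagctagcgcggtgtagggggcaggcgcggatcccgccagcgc

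Origin licensing genes had a median log2 ratio of -0.09 over 10 measured members. Of these 8 were below 0 (80%), against 49.6% of all genes. The group held the member with the highest ratio of all. Orc1, the largest subunit of the origin recognition complex and the one whose level varies through the cell cycle in human cells, gave 363 with Ndrg-1 and 195 with the vector, a 1.86-fold higher signal with Ndrg-1 (log2 ratio 0.89), above the ratio of 97.7% of the 9183 measured genes. Its only probe set gave this value, so no second one stands beside it. The other subunits had smaller ratios. Orc2 had signals of 313 and 343 (log2 ratio -0.14). Orc6 had 498 and 442 on the brightest of its 3 probe sets (log2 ratio 0.17) and ratios of 0.02 and -0.06 on the others. The log2 ratio of Orc1 exceeded that of Orc2 by 1.03 and that of Orc6 by 0.72. Outside the members, the subunit genes Orc3, Orc4 and Orc5 had log2 ratios of 0.32, 0.31 and 0.03 on their brightest probe sets, with -0.07, 0.29 and -0.22 on their second.

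The 6 subunits of the MCM2-7 ring, the core of the replicative helicase, all gave slightly lower signals with Ndrg-1. Their median log2 ratio was -0.14, with 1 member past 1.3-fold. A ratio below 0 was found in 49.6% of all genes. In the brightest band of signal, which held Mcm2, Mcm4, Mcm6 and Mcm7, 64.3% of all genes were below 0. Mcm3 had signals of 520 and 692, a 1.34-fold lower value in the Ndrg-1 array (log2 ratio -0.42). Mcm6 had 1424 and 1670 (log2 ratio -0.23), and Mcm2 had 778 and 878 (-0.18). Mcm5 had 667 and 715 (-0.11), and Mcm4 had 717 and 752 (-0.07). Mcm7 was the brightest of the ring, at 1808 and 1904 (-0.08), and its sign turned to a ratio of up to 0.06 when the arrays were quantile normalized or the trend with signal was removed. Apart from Mcm3, the subunits lay within or close to the SD of probe set disagreement. Each was read by 1 probe set, and that of Mcm6 is of a type that can read several transcripts. Cdt1, the factor that brings MCM2-7 to origins, had 711 and 717 (log2 ratio -0.02).

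The helicase activators showed little difference, with a median log2 ratio of -0.0057 over 4 members. Mcm10, which helps to start the assembled helicase, had signals of 257 and 230 (log2 ratio 0.15) and 163 and 155 on its second probe set (0.08). Cdc45, a subunit of the active helicase, had 491 and 485 (0.01), with 0.25 and -0.02 on its other probe sets above the floor and a further one below the floor in both arrays. The Cdc45 probe sets that gave 0.01 and 0.25 are of types that can read several transcripts. The GINS subunit genes Gins1 and Gins3 had 300 and 326 (-0.12) and 137 and 139 (-0.02).

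The polymerase and primase genes were the most alike between the arrays of the larger groups. All 8 were within 1.2-fold, and their median log2 ratio was -0.02 with a range from -0.14 to 0.10. The catalytic subunit gene of polymerase alpha, Pola1, had signals of 310 and 312 (-0.02), and its partner Pola2 had 194 and 197 (-0.03). Prim1, the catalytic primase subunit, had 290 and 292 (-0.02), and the large primase subunit gene Prim2 had 150 and 149 (0.0042). The enzyme that starts new strands was thus read at nearly equal signal for its 4 subunits. Pold1, the catalytic subunit of polymerase delta, had 277 and 303 (-0.14), and the accessory subunit gene Pold2 had 726 and 675 (0.10). Pole and Pole2, the catalytic and second subunits of polymerase epsilon, had 382 and 374 (0.03) and 321 and 344 (-0.10). The polymerase group lay mostly in the band of signal where the median absolute log2 ratio of all genes was 0.18.

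The sliding clamp and its loader were lower in 5 of 6 members, all within 1.2-fold, with a median log2 ratio of -0.14. A ratio below 0 was found in 49.6% of all genes, and in 64.3% of those in the brightest band of signal. Pcna, Rfc2, Rfc4 and Rfc5 lay in that band. Pcna, the clamp that holds polymerases on DNA, had the highest signal of all members, 3229 with Ndrg-1 and 3684 with the vector (log2 ratio -0.20). Its sign depended on the processing: quantile normalization gave 0.13 and removal of the trend with signal 0.07. The 5 subunits of replication factor C, which opens and loads the clamp, included 4 below 0. Rfc1, the large subunit, had 607 and 663 (-0.13), with -0.07 and -0.34 on its other probe sets. Rfc2 had 757 and 845 (-0.16), Rfc4 had 787 and 871 (-0.15), and Rfc5 had 774 and 848 (-0.14, and -0.17 on its second probe set). Rfc3 alone was above 0, at 473 and 439 (0.10). All of these differences are smaller than the SD of probe set disagreement, apart from the dimmest Rfc1 probe set.

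The 3 genes of replication protein A, which coats single-stranded DNA, were below 0 without reaching 1.2-fold. Of all genes 49.6% were below 0, and 64.3% in the brightest band of signal, where Rpa1 and Rpa3 lay. Rpa1 had signals of 1207 and 1400 (log2 ratio -0.22), Rpa2 had 584 and 618 (-0.09), and Rpa3 had 1511 and 1514 (-0.01, turning to up to 0.09 under other settings that keep the median gene near 0). The genes that finish lagging-strand pieces differed in sign. Fen1, the flap nuclease, had 298 and 280 (0.09). Lig1, the ligase that seals nicks, had 543 and 662, 1.22-fold lower in the Ndrg-1 array (-0.29), with -0.21 on its second probe set.

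Nucleotide supply genes had a median log2 ratio of -0.06 over 4 measured members, none past 1.3-fold. Rrm1, the large subunit of ribonucleotide reductase, had signals of 1215 and 1314 (-0.12). Tk1, the thymidine salvage kinase of S phase, had 862 and 1105 on its brightest probe set, 1.29-fold lower in the Ndrg-1 array (-0.36). Its second probe set was also lower (513 and 577, log2 ratio -0.17), whereas the dimmest went the other way (119 and 92.0, log2 ratio 0.36). Tyms, thymidylate synthase, was the dimmest member at 80.6 and 76.4 (0.07). Dut, which removes dUTP and yields the substrate of thymidylate synthase, had equal signals on its bright probe set (1883 and 1881, log2 ratio -0.0036) and lower ones on its dim probe set (140 and 193, log2 ratio -0.47).

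Among the G1/S regulators, the cyclin E genes had ratios of opposite sign. Ccne1, which encodes cyclin E1, gave 162 with Ndrg-1 and 268 with the vector, 1.66-fold lower (log2 ratio -0.73), with 3.27% of measured genes at a lower ratio. Ccne2, which encodes cyclin E2, had 651 and 438, 1.48-fold higher (log2 ratio 0.57), above 94.1% of measured genes. The log2 ratios of these cyclins, both partners of CDK2, lay 1.3 apart. Ccne1 was read by 1 probe set. The second probe set of Ccne2 was close to the floor at 34.8 and 39.4 (log2 ratio -0.18), and the median over both probe sets was 0.19. Cdk2 itself had 228 and 254 (-0.16) and 127 and 116 on its second probe set (0.12). The activating E2F genes E2f1 and E2f2 had 278 and 327 (-0.24) and 224 and 253 (-0.18).

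**Figure D4:**
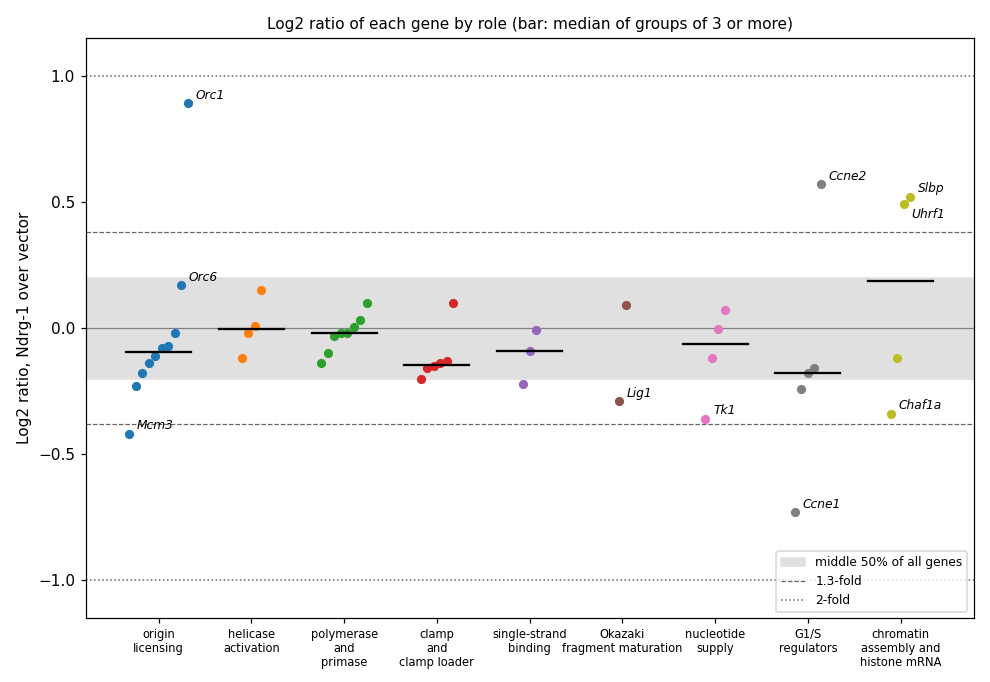
Log2 ratio, Ndrg-1 over vector, of each of the 46 members by role, with bars at the median of groups of 3 or more, the middle 50% of all genes in grey (-0.20 to 0.20), and lines at 1.3-fold and 2-fold. No point reaches 2-fold, the polymerase group lies inside the grey band, and Orc1, Ccne2, Slbp, Uhrf1, Ccne1 and Mcm3 lie beyond the 1.3-fold lines.

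Chromatin assembly and histone mRNA genes divided into a higher pair and a lower pair. Slbp, which binds the stem-loop of replication-dependent histone mRNAs, had signals of 807 and 560, 1.44-fold higher in the Ndrg-1 array (log2 ratio 0.52). That probe set is of a type that can read more than 1 transcript, and the other 2 for the gene were below the floor in both arrays. Uhrf1, which binds hemimethylated DNA behind the fork and recruits the maintenance methyltransferase, had 1039 and 739, 1.40-fold higher (log2 ratio 0.49). Chaf1a, the large subunit of chromatin assembly factor 1, had 251 and 317, 1.26-fold lower (log2 ratio -0.34). Its partner gene Chaf1b had 146 and 158 (log2 ratio -0.12). The group median of 0.18 turned to -0.12 when the Slbp probe set was left out with its type, and no common direction can be stated for these 4 genes.

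Among role groups of 3 or more members, the medians ran from -0.18 for the G1/S regulators, through -0.14 for clamp and clamp loader, -0.09 for origin licensing and for single-strand binding, -0.06 for nucleotide supply, -0.02 for polymerase and primase and -0.0057 for helicase activation, to 0.18 for chromatin assembly. The range within origin licensing, from -0.42 to 0.89, was wider than that whole span. The median signal of the clamp group was 766 with Ndrg-1 and 846 with the vector, and that of the polymerase group 300 and 308, so these groups lay in different bands of signal. With the trend of ratio on signal removed, the medians were -0.13 for the clamp group and -0.05 for the polymerase group, and quantile normalization gave -0.13 and -0.06.

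Other genes of the pathway, listed by role with earlier results of these data known, were about evenly divided between negative and positive ratios. Of 75 such genes 61 were on the array, and 56 passed the floor in 1 array or both. Their median log2 ratio was 0.04, and 24 were below 0 (42.9%, with 49.6% of all genes). At least 1.3-fold higher were 5 (8.93%, with 11.8% of all genes), and at least 1.3-fold lower were 7 (12.5%, with 12.0%). The 21 further fork and origin genes had a median log2 ratio of 0.03. Mcm8, an MCM relative with a role in recombination, had 151 and 96.3 (1.57-fold higher), and Mcmbp, which binds MCM proteins, had 87.3 and 63.6 (1.37-fold higher). Pold4, the small subunit of polymerase delta, had 149 and 207 (1.40-fold lower), and Rnaseh2a, the catalytic subunit of ribonuclease H2, had 409 and 536 (1.31-fold lower).

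In nucleotide supply outside the members, 9 genes were measured, with a median log2 ratio of 0.05. Dck, the deoxycytidine salvage kinase, had signals of 136 and 210 (1.55-fold lower), with a log2 ratio of -0.60 on a second probe set. Dtymk, which phosphorylates dTMP made by thymidine kinase and thymidylate synthase, had 665 and 870 (1.31-fold lower) and -0.43 on its second probe set. Samhd1, which breaks down deoxynucleotides, had 51.0 in the Ndrg-1 array and was at the floor in the vector array, at least 1.65-fold higher.

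Further G1/S control genes included 17 above the floor, with a median log2 ratio of 0.08. Of these 5 were below 0 (29.4%), with 49.6% of all genes. Of the 3 D cyclin genes, whose products act before cyclin E, Ccnd2 was below the floor in both arrays and the others were lower with Ndrg-1. Ccnd3 had 700 and 1146 (1.64-fold lower), and Ccnd1 had 2007 and 2697 (1.35-fold lower), with -0.32 and -0.25 on its other probe sets. Ccna2, the cyclin that follows cyclin E in S phase, had 1329 and 987 (1.34-fold higher). Rbl2, an RB relative that holds E2F targets down, had 187 and 257 (1.37-fold lower). Tfdp2, an E2F partner, was the 1 gene of these 56 past 2-fold, where 3.13% of all genes were. It had 80.8 and 39.2 (2.06-fold higher), with the vector signal close to the floor of 31.0. Its other 2 probe sets were below the floor in both arrays. The CDK inhibitor genes Cdkn1a and Cdkn1b had log2 ratios of 0.07 and 0.30, and Cdkn2a and Cdkn2b were below the floor in both arrays. The 9 measured genes of replication-coupled chromatin and repair had a median of -0.18, and 0 of them reached 1.3-fold.

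**Figure D5:**
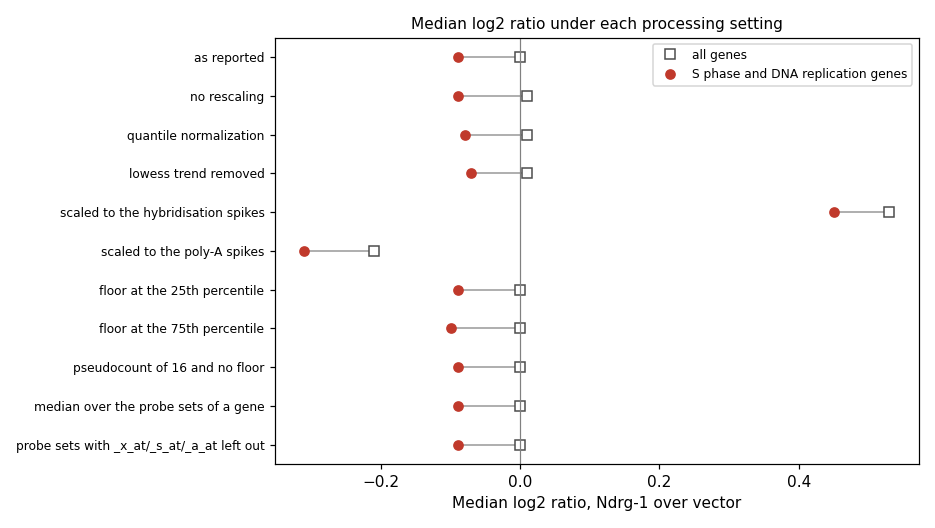
Median log2 ratio, Ndrg-1 over vector, of the members (red points) and of all genes measured (open squares) under the reported processing and 10 alternatives. The members' median lies 0.07 to 0.10 below that of all genes in each setting, while scaling to spiked controls moves both together, to 0.45 and 0.53 or to -0.31 and -0.21.

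Over the 10 alternatives the log2 ratio of Orc1 was between 0.68 and 1.44 and that of Uhrf1 between 0.27 and 1.03. Ccne1 was between -0.95 and -0.19, and Ccne2 between 0.19 and 1.11. The ends of these ranges come from scaling to spiked controls, which shifts all genes together, except the lower end of Ccne2, which is its median over probe sets. The members' median was 0.45 when the arrays were scaled to the 18 hybridisation spikes and -0.31 when they were scaled to the 24 poly-A spikes, settings that moved the median of all genes to 0.53 and -0.21. Ratios are therefore relative to the median gene. Under scaling to the hybridisation spikes every negative ratio except that of Ccne1 turned positive. Those of the MCM ring were among them, with Mcm3 going from -0.42 to 0.13.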

How the data were processed

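Probe set intensities (linear signal) were deposited by the authors, and the submitters' processing notes name GCOS 1.3. How probe sets were summarised, called as detected and scaled is not given in the sources used here. The mean without the lowest and highest 2% of values was 150.0 in both arrays, so a common scaling had been applied. The depth of an array is not counted, and the number of arrays limits the precision.

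The vector array was rescaled (log2 shift 0.0048) to bring the median log2 ratio of the brighter probe sets, those above the overall median signal, to 0. Signals below 31.0, the median of all non-control probe sets, were set to that floor. Of 31042 non-control probe sets, 20826 carried 1 gene symbol, 436 several and 9780 none, and 20758 of the first matched RefSeq by gene ID. A gene's value came from the probe set brightest on average on the log2 scale. Printed signals are as deposited, and ratios are after rescaling. Differences were counted at 2-fold and 1.3-fold. With 1 array per group no test was made.

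Every member is given by role, with most detail for the 5 highest and 5 lowest ratios, members at the floor and members whose probe sets disagree by over 0.46, and Ndrg1 is given as the check of the transfected gene. Other pathway genes are named where they reach 1.3-fold, and any further one was chosen after its values were seen. The members, lists and settings were chosen with earlier results of these data known. The procedure was tested on simulated data with changes planted only in brighter genes. That test does not cover changes in dim genes or variation between clones and cultures. Alternatives were other scalings, floors and probe set choices, and a pseudocount of 16. Promoter windows are from RefSeq (GRCr8). Tools were Python 3.11.15, numpy 2.4.6, pandas 2.3.3, statsmodels 0.14.6 and matplotlib 3.10.9.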

Additional observations from a re-analysis of the deposited data

How the results depend on the processing

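No paired analysis was possible because each group holds 1 array. Changes in a value were read against the SD of probe set disagreement (0.23), for lack of replicates, and changes in a count against a factor of 1.5. Scaling to the hybridisation spikes moved every summary. The members' median became 0.45, with 1 member below 0, 35 at least 1.3-fold and 4 at least 2-fold different. Of all genes, 69.1% were then higher by 1.3-fold or more, 1.95% were lower by that much, and 6.17% had a ratio below 0. The share of all genes past 2-fold was not counted under this scaling. The role medians became 0.45 for origin licensing, 0.54 for helicase activation, 0.53 for polymerase and primase, 0.40 for clamp and clamp loader, 0.46 for single-strand binding, 0.44 for Okazaki fragment maturation, 0.48 for nucleotide supply, 0.36 for G1/S regulators and 0.73 for chromatin assembly and histone mRNA. Scaling to the poly-A spikes gave 12 members at least 1.3-fold different, against 6 as reported. Of the 12, 1 was higher, where 5.66% of all genes were, and 11 were lower, where 28.2% were. A ratio below 0 was then found in 42 members and in 76% of all genes. These shifts follow from the scaling, which moved the median gene by a like amount. The chromatin assembly median of 0.18 became 0.49 with the floor at the 75th percentile, where fewer of its genes were compared, and -0.12 without probe sets of the _x_at, _s_at and _a_at types, where Slbp has no value. Of 454 values of single members under the alternatives, 404 moved by less than 0.23, and 46 of the other 50 came from the hybridisation spikes. The remaining 4 were Pcna at 0.13 (quantile normalization) and 0.07 (trend removed), and Dut at -0.24 and Ccne2 at 0.19 (median over probe sets). Values under the poly-A spikes count among the 404. That scaling shifted the median of all genes to -0.21, just inside the limit of 0.23. In the 8 alternatives that do not scale to spikes, 39 of the 46 members kept their sign throughout. With the spike scalings included, 5 members did.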
